A study of Mus musculus with 9 samples.

Results

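The genes described here encode elastin, fibrillin-2, the fibulins and the microfibril-associated proteins of the elastic fibre, measured in fibroblasts that carried both, 1 or 0 working copies of Oga. The 10 genes chosen were Fbn1, Fbn2, Eln, Fbln1, Fbln2, Fbln5, Efemp1, Efemp2, Mfap4 and Mfap5. The platform annotation gave 8 of them as the only symbol of a probe set, on 15 of 45037 probe sets. The 932 probe sets with several symbols were not matched to the genes. Fbn1 and Efemp2 were not analysed here. All 15 probe sets lay above the low-value limit used for gene-level tests, a mean log2 value of 6.22. Oga encodes O-GlcNAcase, the enzyme that takes O-GlcNAc sugar groups off nuclear and cytoplasmic proteins.

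The elastic fibre has a core of cross-linked elastin on a scaffold of microfibrils, and fibroblasts and smooth muscle cells secrete its parts. Fibrillins form the microfibrils, small microfibril-associated proteins decorate them, and fibulins link elastin to microfibrils and to cells. Lysyl oxidases then cross-link elastin. Latent TGF-beta binding proteins tie the same microfibrils to a growth factor store.

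Mouse embryonic fibroblasts (MEFs), primary cultures grown from minced embryos, came from female embryos at E12.5 and were grown in DMEM. The WT, heterozygous (Het) and knockout (KO) embryos came from intercrosses of Oga +/- mice. Those mice stemmed from a cross of an Oga floxed/+ male with an MMTV-cre female, whose recombinase is driven by a mammary tumour virus promoter; whether the embryos carried the cre transgene is not stated in the labels or the design text. Each genotype was 1 line, and its 3 arrays were technical replicates per the series' design text, so n counts arrays, every p-value measures the spread between arrays of a line, and genotype cannot be told apart from any other difference between the 3 lines.

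Array medians lay between 6.87 and 6.95 on the deposited log2 scale, and arrays correlated at r = 0.997 to 0.999 within a line and at 0.989 to 0.996 between lines. The brightest Oga probe set averaged 11.92 on WT arrays, 11.16 on Het arrays and 6.06 on KO arrays. Fibroblast markers were bright in every line: the mean of 12 markers, led by Col1a2 and Col1a1, was 13.22 to 13.23 on WT, 13.21 to 13.22 on Het and 12.92 to 12.97 on KO arrays, although the receptor gene Pdgfra fell by 2.55 log2 units in KO against WT (limma adjusted p = 3.9e-10). The 3' minus 5' difference of the GAPDH control, a sign of RNA quality, was -0.088 to -0.069 on WT, -0.0077 to 0.0041 on Het and -0.099 to -0.036 on KO arrays. That of the actin control was 0.060 to 0.082 on WT, 0.093 to 0.122 on Het and 0.052 to 0.087 on KO arrays. On both controls every Het array lay above all WT and KO arrays. The part of RNA quality in the differences reported here was not tested.

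Loss of both copies went with unlike differences among the genes of the fibre. Between the KO and WT lines 1 of the 8 genes, Efemp1, rose, which here means a limma adjusted p below 0.05 over 12962 genes and at least 2-fold; 3.56% of all genes met this rule in either direction and 0.988% met it upward. On the adjusted p alone 7 of the 8 passed, 4 higher (Efemp1, Mfap5, Fbln5 and Fbln2) and 3 lower (Mfap4, Fbln1 and Fbn2), where 53.1% of all genes passed, 21.6% higher and 31.5% lower. Eln did not pass. The 8 genes are bright, and among the 4785 genes at least as bright as the dimmest of them (Mfap5) 55.2% passed and 2.11% were also past 2-fold. At the level of probe sets, 7 of 15 were higher and 5 lower with an adjusted p below 0.05 over all 45037 probe sets, of which 28.9% passed. The median difference of the 8 genes was 0.15 on the log2 scale, beside -0.03 over all genes, and the median absolute difference was 0.40, beside 0.15.

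**Figure D1:**
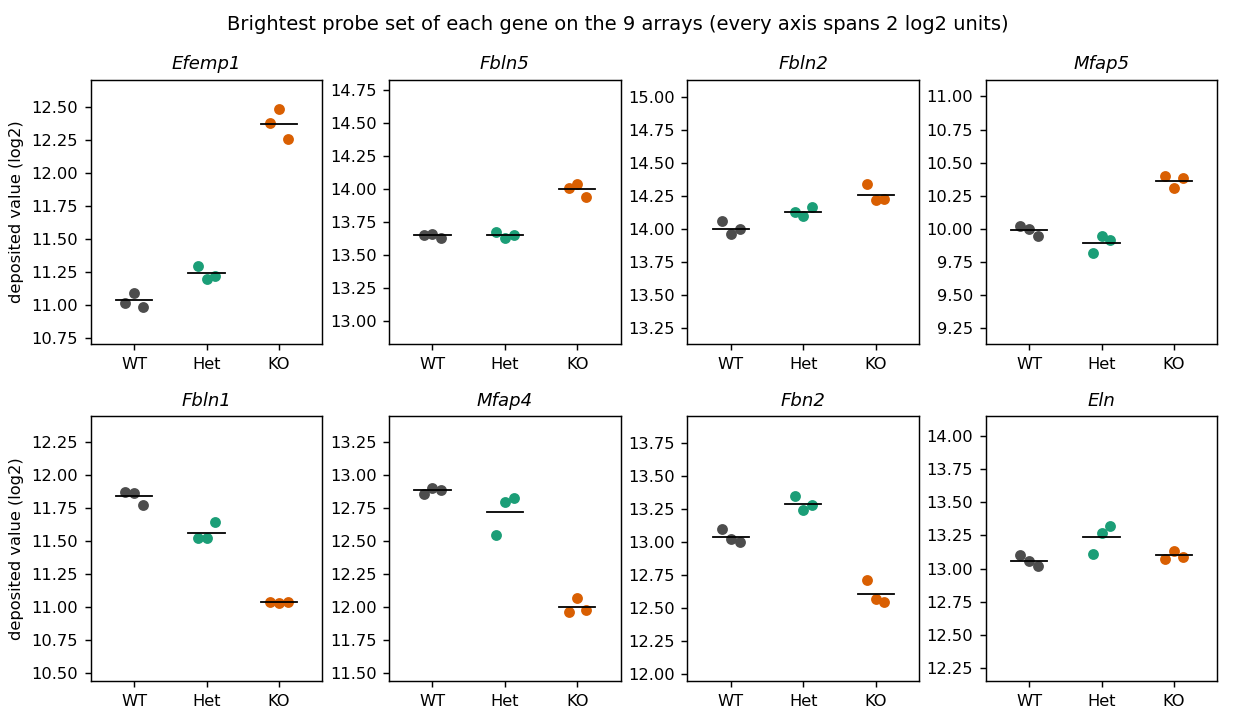
Deposited log2 value of the brightest probe set of each gene on the 3 arrays of each line, with a bar at the line mean; every axis spans the same 2 log2 units. The KO arrays of Efemp1 (12.26 to 12.48) lie above all WT and Het arrays, those of Mfap4 (11.96 to 12.07) and Fbln1 (11.03 to 11.04) lie below them, and those of Eln (13.07 to 13.13) overlap WT.

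Efemp1 encodes fibulin-3, a short fibulin of connective tissue sheaths and of the layer beneath the retina. The only probe set with Efemp1 as its 1 symbol read 11.02, 11.09 and 10.99 on the WT arrays. It read 11.30, 11.20 and 11.22 on the Het arrays and 12.38, 12.48 and 12.26 on the KO arrays. The lines did not overlap in any comparison, and the gap between Het and KO was much wider than that between WT and Het. KO was 2.53-fold above WT (log2 difference 1.34 ± 0.056, SE, limma adjusted p = 6.7e-09 over all genes) and 2.19-fold above Het (1.13 ± 0.056, adjusted p = 4.5e-08). Het stood 0.21 ± 0.056 above WT (adjusted p = 0.0156), which is 15.4% of the distance from WT to KO. This small Het difference did not pass without WT replicate 3 (0.19, adjusted p = 0.0577) or without Het replicate 1 (0.18, adjusted p = 0.0535). The range of its 3 line means, 1.34, was at the 98.1 percentile of all genes tested.

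For 4 of the 8 measured genes RefSeq promoter windows were at hand (Efemp1, Fbln1, Fbln2 and Fbln5; build GRCm38.p6). Those of the gene with the largest difference, of a fibulin that moved the same way and of a fibulin that moved the opposite way are shown, cut to the bases outside the annotated gene. Each is written 5′ to 3′ along the gene's strand, at chr11:28852955-28853153 on the plus strand for Efemp1, chr12:101819120-101819369 on the minus strand for Fbln5 and chr15:85205699-85205948 on the plus strand for Fbln1. Capitals mark matches, on either strand, to the letters of 5 motifs. The letters of the GC box were GGGCGG and those of the TATA box were TATAAA. The letters searched for an AP-1 site were TGANTCA, where N is any base, those for an E-box CACGTG and those for a SMAD box GTCTNGAC. None of these motifs overlaps another in the stretches shown.
Efemp1: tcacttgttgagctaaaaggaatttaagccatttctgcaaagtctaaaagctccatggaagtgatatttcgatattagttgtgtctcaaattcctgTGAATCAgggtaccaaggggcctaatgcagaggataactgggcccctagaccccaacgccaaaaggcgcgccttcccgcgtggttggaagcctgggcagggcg
Fbln5: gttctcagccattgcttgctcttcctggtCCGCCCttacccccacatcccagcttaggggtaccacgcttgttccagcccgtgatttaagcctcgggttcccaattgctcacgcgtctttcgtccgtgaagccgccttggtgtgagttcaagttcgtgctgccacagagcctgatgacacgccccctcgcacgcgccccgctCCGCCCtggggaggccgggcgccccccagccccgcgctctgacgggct
Fbln1: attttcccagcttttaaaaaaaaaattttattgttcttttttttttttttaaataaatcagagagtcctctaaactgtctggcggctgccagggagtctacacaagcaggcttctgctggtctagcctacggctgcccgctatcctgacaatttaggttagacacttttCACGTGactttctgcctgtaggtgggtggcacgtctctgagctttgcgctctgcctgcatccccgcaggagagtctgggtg
In the full windows, 250 bases before to 50 after the start site, Efemp1 held 1 match to the AP-1 letters, reading TGAATCA. Its first base lay 154 bases before the start, and 1 GC box lay 29 bases before the start, outside the stretch shown. Fbln5 held 2 GC boxes, at 221 and 48 bases before its first start site. Fbln1 held 1 E-box, 81 bases before its first start site. The other Fbln5 start site had 0 matches to any of the motifs, the other Fbln1 start site had 2 GC boxes and the E-box, and Fbln2 had 2 GC boxes. Among 32851 promoter windows of the same length 35.7% held the GC box, 13.6% the TATA box, 7.81% the AP-1 letters, 7.15% the E-box and 1.84% the SMAD box. The matches describe letters in these windows and were not tied to the expression values.

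Fbln5 encodes fibulin-5, which binds elastin and cell-surface integrins and is needed for elastic fibres to form. Its bright probe set read 13.65, 13.66 and 13.63 on WT, 13.67, 13.63 and 13.65 on Het and 14.01, 14.04 and 13.94 on KO arrays. WT and Het overlapped, and every KO array lay above both. The log2 difference between KO and WT was 0.35 ± 0.038 (SE, limma adjusted p = 1.6e-05) and between Het and WT it was 0.0040 ± 0.038 (adjusted p = 0.946, 95% interval -0.080 to 0.088). A dimmer Fbln5 probe set read 7.07 to 7.32 on WT, 7.36 to 7.39 on Het and 7.69 to 7.85 on KO arrays. There KO was 0.58 ± 0.068 above WT (adjusted p = 9.0e-05 over all probe sets), so the direction was shared and the size was larger.

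Fbln2 encodes fibulin-2, a long fibulin that binds fibronectin, fibrillin and elastin precursors. It was close to the top of the deposited scale, whose highest value on any array was 15.15: the bright probe set read 14.06, 13.96 and 14.00 on WT, 14.13, 14.10 and 14.17 on Het and 14.34, 14.22 and 14.23 on KO arrays. The 3 lines did not overlap and stood in the order WT, Het, KO. KO was above WT by 0.26 ± 0.045 (SE, limma adjusted p = 6.2e-04) and above Het by 0.13 (adjusted p = 0.0319), while Het did not pass against WT (0.13, adjusted p = 0.0524). These last 2 steps changed sides of the threshold with the processing: KO against Het was lost with quantile normalization (adjusted p = 0.0789), with no low-value filter (0.0573) and without Het replicate 1 (adjusted p = 0.0599), Het replicate 2 (0.107) or KO replicate 1 (0.127), and Het against WT passed without KO replicate 1 (0.0398), with the replicate number as a block (0.0462) and in 3 other settings. A dim Fbln2 probe set at 6.24 to 6.36 on WT, 6.41 to 6.53 on Het and 6.66 to 6.90 on KO arrays kept the same order of lines and gave 0.51 ± 0.069 for KO against WT (adjusted p = 2.7e-04 over all probe sets).

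Fbln1 went the other way. It encodes fibulin-1, a long fibulin found with fibronectin, in basement membranes and in the elastin core. The bright probe set read 11.87, 11.86 and 11.77 on WT, 11.52, 11.52 and 11.64 on Het and 11.04, 11.03 and 11.04 on KO arrays. The lines did not overlap, with Het between the others. KO was 1.74-fold below WT (log2 difference -0.80 ± 0.046, SE, limma adjusted p = 7.9e-08) and 1.44-fold below Het (-0.52, adjusted p = 3.9e-06). Het was 1.21-fold below WT (-0.28, adjusted p = 9.99e-04), 34.6% of the distance to KO.

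The other Fbln1 probe sets did not give 1 answer. The probe set with the next highest mean read 10.38 to 10.48 on WT, 10.04 to 10.14 on Het and 9.43 to 9.59 on KO arrays, a log2 difference of -0.93 ± 0.058 between KO and WT (adjusted p = 8.9e-07 over all probe sets). The dimmest read 7.41 to 7.42 on WT, 7.40 to 7.54 on Het and 7.32 to 7.42 on KO arrays, and KO did not pass against WT there (-0.058 ± 0.052, adjusted p = 0.461). Which Fbln1 transcripts each probe set detects was not analysed here, so the size of the Fbln1 difference depends on the probe set.

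Among the microfibril genes, Mfap4, Mfap5 and Fbn2 differed in direction. Mfap4 encodes a fibrinogen-related protein that binds elastin, fibrillin and integrins. Its values were 12.85, 12.90 and 12.88 on WT, 12.54, 12.79 and 12.82 on Het and 11.96, 12.07 and 11.98 on KO arrays. All KO arrays were below all others, and Het replicate 1 lay well below the other Het arrays. The KO line was 1.83-fold below WT (log2 difference -0.87 ± 0.068, SE, limma adjusted p = 1.0e-06) and 1.64-fold below Het (-0.71, adjusted p = 7.9e-06). Het against WT did not pass (-0.16, adjusted p = 0.0897). It passed without Het replicate 3 (-0.22, adjusted p = 0.0454), with median centring (-0.20, 0.0457) and with a trended robust variance (-0.16, 0.0253), and without the low Het replicate 1 it came to -0.073 (adjusted p = 0.250).

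Mfap5 encodes MAGP-2, a small protein that binds fibrillins and integrins. Its brighter probe set read 10.02, 9.999 and 9.95 on WT, 9.82, 9.94 and 9.92 on Het and 10.40, 10.31 and 10.38 on KO arrays. Every KO array was above every WT and Het array, and the Het arrays ended just below the lowest WT array. KO exceeded WT by 0.37 ± 0.046 (SE, limma adjusted p = 3.9e-05) and Het by 0.47 (adjusted p = 8.7e-06), and Het did not pass against WT (-0.095, adjusted p = 0.131). The other Mfap5 probe set gave 0.34 ± 0.058 for KO against WT (adjusted p = 0.00126 over all probe sets), with WT arrays at 9.51 to 9.55, Het at 9.38 to 9.57 and KO at 9.82 to 9.92.

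Fbn2 encodes fibrillin-2, the fibrillin most characteristic of embryonic microfibrils. The brighter of its probe sets read 13.10, 13.02 and 13.00 on WT, 13.35, 13.24 and 13.28 on Het and 12.71, 12.57 and 12.55 on KO arrays. Het was the highest line and KO the lowest, with no overlap. The log2 difference of KO from WT was -0.43 ± 0.052 (SE, limma adjusted p = 3.9e-05) and that from Het was -0.68 ± 0.052 (adjusted p = 1.4e-06), and Het was above WT by 0.25 (adjusted p = 0.00389). The other Fbn2 probe set repeated the lower KO values, at 12.06 to 12.16 against 12.41 to 12.42 on WT (-0.32 ± 0.046, adjusted p = 3.8e-04 over all probe sets). It did not repeat the higher Het values, which were 12.36 to 12.38 (-0.046 ± 0.046 against WT, adjusted p = 0.524), and with the mean of the probe sets Het against WT did not pass (0.10, adjusted p = 0.0545).

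**Figure D2:**
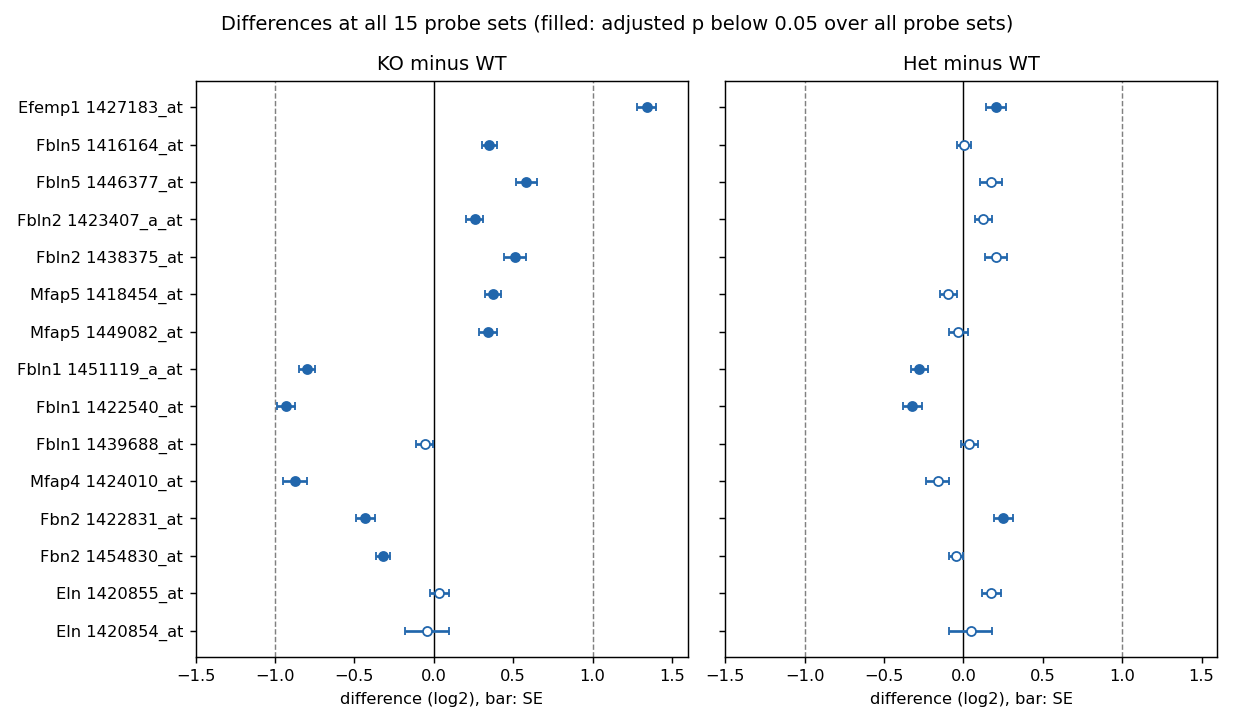
Log2 differences of KO (left) and Het (right) from WT at all 15 probe sets, with SE bars; filled points have a limma adjusted p below 0.05 over all probe sets, and dashed lines mark 2-fold. In KO against WT only Efemp1 (1.34) passes a dashed line, the probe sets of Fbln5, Fbln2 and Mfap5 lie to the right and those of Mfap4 and Fbn2 to the left, and 1 of the Fbln1 probe sets (-0.058) stays near 0 with the Eln probe sets.

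Eln encodes tropoelastin, the soluble precursor that is cross-linked into the core of the fibre. It was bright in every line, at 13.10, 13.06 and 13.02 on WT, 13.11, 13.27 and 13.32 on Het and 13.07, 13.13 and 13.09 on KO arrays. WT and KO overlapped, and Het ran from just above WT to clearly above it. KO minus WT was 0.034 ± 0.054 on the log2 scale (SE, limma adjusted p = 0.623), with a 95% interval of -0.085 to 0.15, and its sign turned with quantile normalization (-0.022) and with the mean of the probe sets (-0.0031). Het was above WT by 0.17 ± 0.054 (adjusted p = 0.0281) and KO below Het by -0.14 ± 0.054 (adjusted p = 0.0480). Both depended on the processing and on single arrays. Het against WT did not pass with median centring (adjusted p = 0.0823), with no low-value filter (0.0514), with the mean of the probe sets (0.373) or without WT replicate 2, WT replicate 3, Het replicate 2 or Het replicate 3, with an adjusted p of 0.00297 to 0.373 over all alternatives. KO against Het did not pass with the replicate number as a block (adjusted p = 0.0630), with median centring (0.224), with no low-value filter (0.0806), with the mean of the probe sets (0.321) or in the fit on these 2 lines alone (0.0720). Nor did it pass without any 1 of the WT or KO arrays, Het replicate 2 or Het replicate 3, with an adjusted p of 0.00325 to 0.321 over all alternatives. Tested over all probe sets, neither Eln probe set passed in any comparison. The brighter had a limma adjusted p there of 0.721 (KO against WT), 0.0645 (Het against WT) and 0.118 (KO against Het). The dimmer read 10.93 to 11.19 on WT, 10.77 to 11.40 on Het and 10.95 to 11.11 on KO arrays.

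Between the Het and WT lines the median absolute difference of the 8 genes was 0.17 on the log2 scale, beside 0.10 over all genes, and 0 of 8 were called at 2-fold with limma (0.255% of all genes were, and 0.0627% of those as bright). On the adjusted p alone 4 of 8 passed, Fbn2, Eln and Efemp1 higher and Fbln1 lower, beside 34.4% of all genes (13.4% higher, 21.0% lower) and 40.1% of those as bright; 6 of the 8 had an unadjusted p below 0.05, beside 44.3% of all genes. Between KO and Het 1 of 8, Efemp1, rose (2.0% of all genes were called, 0.625% upward and 1.37% downward, and 1.11% of those as bright), and all 8 passed the adjusted p alone, 4 higher and 4 lower, beside 52.3% of all genes (23.7% higher, 28.6% lower) and 56.5% of those as bright. Of the 15 probe sets 4 passed in the Het and WT comparison and 11 in that of KO and Het, beside 21.0% and 26.6% of all probe sets. The arrays of the compared lines did not overlap in 7 of 8 genes in each comparison, beside 61.8% of all genes for KO and WT, 47.7% for Het and WT and 57.9% for KO and Het. These comparisons share lines and are not independent of each other. The Het mean lay between the others for 5 of the 8 genes (Fbln1, Fbln2, Fbln5, Efemp1 and Mfap4), beside 42.9% of all genes. Fbln5 is among them by a Het difference of 0.0040 from WT, and with quantile normalization, with median centring, without WT replicate 3 or without Het replicate 1 the count was 4 of 8.

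Other genes of the pathway were read from 8 lists of 66 genes, of which 59 were measured. Between KO and WT 4 rose and 3 fell (0.988% and 2.58% of all genes did), and 25 higher and 17 lower genes passed the adjusted p alone, beside 21.6% and 31.5% of all genes. An unadjusted p below 0.05 was reached by 44 of the 59, beside 58.0% of all genes. The median difference of the 59 was 0.05, beside -0.03 over all genes. Between Het and WT 0 of 59 were called with limma at 2-fold, beside 0.255% of all genes. On the adjusted p alone 13 higher and 16 lower genes passed, beside 13.4% and 21.0% of all genes. An unadjusted p below 0.05 was reached by 40 of 59, beside 44.3%. Between KO and Het 27 higher and 14 lower genes passed the adjusted p alone, beside 23.7% and 28.6% of all genes. Of the 59 genes 1 rose and 3 fell, beside 0.625% and 1.37% of all genes. Mfap3l (1.02) rose, and Emilin2 (-1.13), Ctss (-1.04) and Tgfbr3 (-1.13) fell. Of these KO and Het calls, that of Mfap3l was lost with the mean of the probe sets (0.74), without Het replicate 3 (0.98) or without KO replicate 1 (0.99), that of Ctss with median centring (-0.99) and that of Tgfbr3 with the mean (-0.55), while Hmcn1 reached 2-fold without KO replicate 3 (1.01) and Ltbp2 with median centring (1.0).

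Of 8 measured microfibril-associated genes 2 rose and 1 fell in KO against WT, beside 0.988% and 2.58% of all genes. Hmcn1, which encodes hemicentin-1 of the fibulin family, had line means of 9.70 (WT), 9.97 (Het) and 10.91 (KO) and rose by 1.21 ± 0.066 (SE, limma adjusted p = 5.5e-08). Emilin2, an elastin microfibril interface protein gene, had means of 9.47, 9.56 and 8.43 in the same order and fell by 1.04, but did not reach 2-fold without WT replicate 1 (-0.99) or after quantile normalization (-0.99). Mfap3l, named for its likeness to Mfap3 and not an established part of the microfibril, rose by 1.17 at its brightest probe set and differed by 0.38 and 0.75 at its other probe sets, with a mean over those past the low-value limit of 0.77. Mfap2, which encodes the fibrillin-binding MAGP-1, was lower without reaching 2-fold (-0.50, adjusted p = 7.9e-06), opposite to its relative Mfap5.

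Of the 4 latent TGF-beta binding protein genes 1 rose and 0 fell, beside 0.988% and 2.58% of all genes. Ltbp2, whose product binds fibulin-5 and fibrillin, had line means of 11.39 (WT), 11.49 (Het) and 12.44 (KO) and rose by 1.05 (limma adjusted p = 2.2e-09). Ltbp1 was higher by 0.76 (adjusted p = 5.4e-08), Ltbp3 by 0.14 (adjusted p = 0.0165), and Ltbp4, whose product promotes elastic fibre assembly, was lower by a difference of -0.56 (adjusted p = 3.9e-05).

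The lysyl oxidase genes had a median absolute KO minus WT difference of 0.16, beside 0.40 for the 8 elastic fibre genes. That median was 0.15 over all genes and 0.10 for the list of elastin-degrading enzymes. None of 4 measured lysyl oxidase genes was called with limma, beside 3.56% of all genes. On the adjusted p alone 2 passed, beside 53.1% of all genes (21.6% higher, 31.5% lower). An unadjusted p below 0.05 was reached by 2, beside 58.0% of all genes. The largest differences were those of Loxl4 (0.39, adjusted p = 7.3e-06) and Loxl1 (0.25, adjusted p = 2.7e-04), the enzyme most tied to elastin. None of 8 ADAMTS and ADAMTS-like genes was called with limma (6 had an unadjusted p below 0.05), 4 were higher and 1 lower on the adjusted p, and Adamtsl3 (-0.70) and the fibrillin-binding Adamts10 (0.57) differed most. In the assembly scaffold list 0 of 6 were called with limma (5 had an unadjusted p below 0.05); the proteoglycan genes Dcn (-0.93, adjusted p = 1.3e-08) and Hspg2 (0.66, adjusted p = 9.4e-05) differed most, with 2 higher and 2 lower on the adjusted p alone.

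Receptors of the fibre showed 0 called genes among 11 with limma, beside 3.56% of all genes. An unadjusted p below 0.05 was reached by 9, beside 58.0% of all genes. On the adjusted p 6 were higher and 3 lower, beside 21.6% and 31.5% of all genes. The integrin subunit genes Itga8 (0.68) and Itgb8 (-0.60) differed most. In the list of elastin-degrading enzymes 1 of 7 rose and 1 fell. Mmp9, a gelatinase gene, rose by 1.03 (limma adjusted p = 3.5e-07) and did not reach 2-fold without WT replicate 1 (0.95) or when its probe sets were averaged (0.998). Ctss, a cathepsin gene that macrophages express strongly, fell by 1.39 (adjusted p = 3.6e-10). Among 11 genes from TGF-beta ligands to Smads Tgfbr3, a co-receptor gene, fell by 2.02, while its other probe set differed by -0.46 and the mean of both by -1.24, and 4 higher and 3 lower genes passed the adjusted p.

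**Figure D3:**
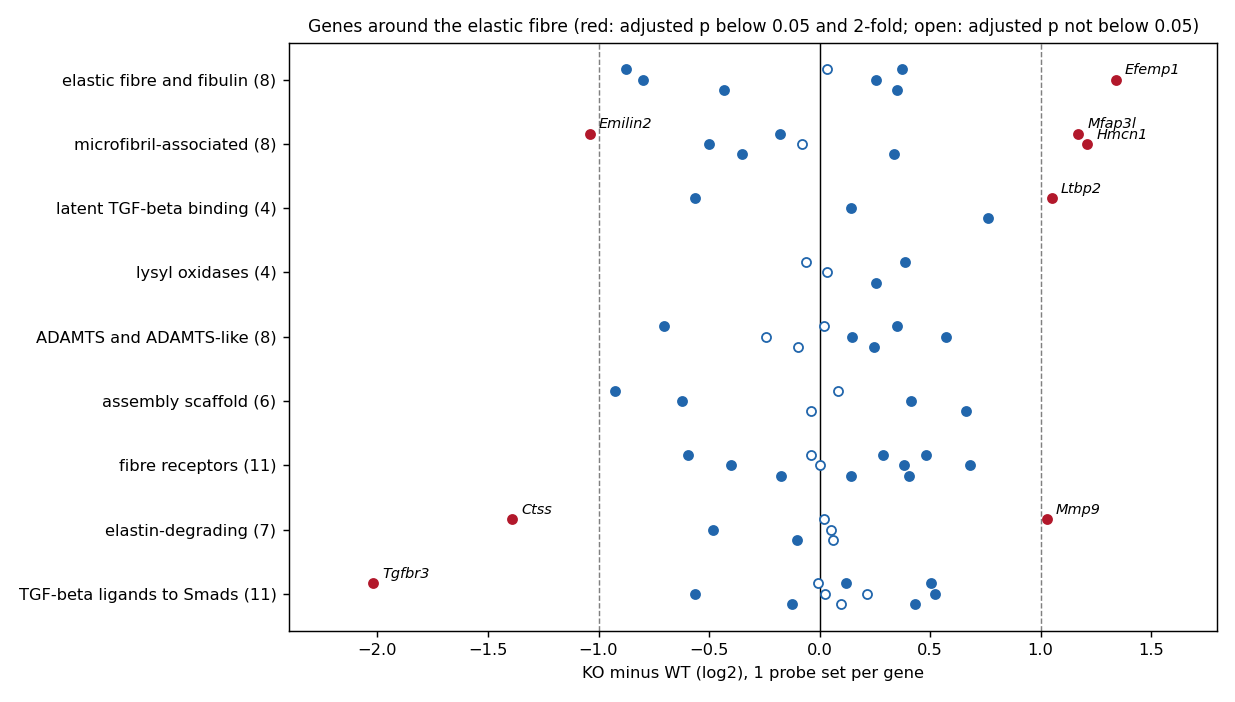
Log2 difference between KO and WT for each measured gene of 9 lists (number measured in brackets), 1 probe set per gene; red points passed the adjusted p and 2-fold, open points did not pass the adjusted p, and dashed lines mark 2-fold. Efemp1 (1.34), Hmcn1 (1.21), Mfap3l (1.17), Ltbp2 (1.05) and Mmp9 (1.03) lie beyond the right line and Emilin2 (-1.04), Ctss (-1.39) and Tgfbr3 (-2.02) beyond the left, while most genes lie between.

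Several marker lists named for other cell types also differed between the lines. Macrophage markers fell in KO, 15 of 15 of them against WT, with a list mean of 11.36 to 11.39 on WT, 11.02 to 11.08 on Het and 9.56 to 9.63 on KO arrays and a log2 of the summed level of 15.75 to 15.79, 15.46 to 15.53 and 13.95 to 14.02. Smooth muscle and pericyte markers, led by Acta2 and Tagln, rose in 5 of 12 cases and passed the adjusted p upward in all 12, with list means of 10.30 to 10.32, 10.68 to 10.73 and 11.26 to 11.31 and summed levels of 15.73 to 15.75, 15.96 to 15.98 and 16.31 to 16.33. Fibroblasts and smooth muscle cells both make elastic fibre proteins, and which cells expressed these markers was not tested. Acta2 and Tagln, the 2 brightest of the list, averaged 14.5 and 14.34 on WT arrays, and Myocd, the dimmest of it, averaged 5.96. In 7 measured of 11 skeletal muscle markers 4 rose and 7 passed the adjusted p upward. In 5 measured of 9 epithelial and mesothelial markers 2 rose and 4 passed upward. In 6 measured of 7 cartilage markers 3 fell and 6 passed downward. Of the 12 fibroblast markers 1, Pdgfra, fell, and 2 passed upward and 4 downward. Over all genes 0.988% rose and 2.58% fell between KO and WT, and 21.6% passed the adjusted p upward and 31.5% downward. Of 8 endothelial markers 2 were measured, 0 were called with limma and 0 had an unadjusted p below 0.05, and the endothelial genes Pecam1, Cdh5, Tek, Tie1, Emcn and Vwf, the muscle genes Myod1, Myf5, Pax7 and Ttn, the epithelial genes Cdh1, Krt14, Upk3b and Msln and the cartilage gene Matn1 lay below the low-value limit. In bulk RNA fewer cells of a type and less RNA per cell cannot be told apart, and the part of cell makeup in the differences of the elastic fibre genes was not tested.

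**Figure D4:**
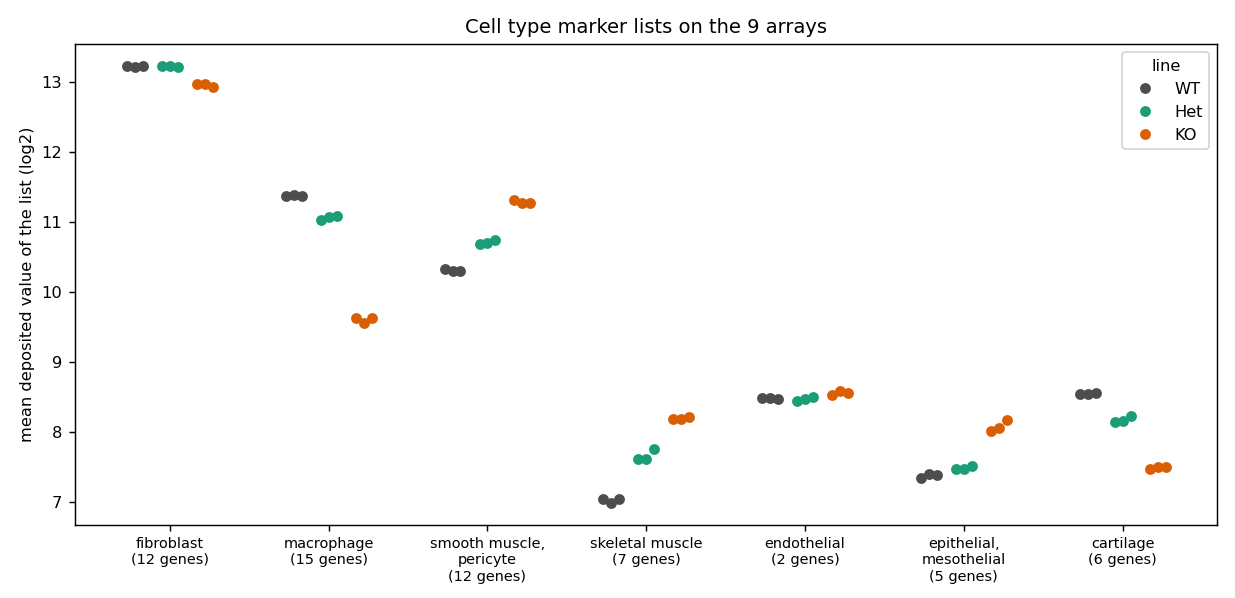
Mean deposited log2 value of each marker list on each array, coloured by line, with the number of measured genes below each list. The macrophage list is lowest on the KO arrays (9.56 to 9.63) and the smooth muscle and pericyte list is highest there (11.26 to 11.31). The fibroblast list is lower on the KO arrays (12.92 to 12.97) than on the WT and Het arrays (13.21 to 13.23).

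The genes most like Efemp1 over the 9 arrays were Pmaip1 (r = 0.997), Kcna5 (r = 0.996) and Irgm1 (r = 0.996), with KO minus WT differences of 1.5, 0.80 and 0.92. Of 12954 genes compared 479 had r above 0.95 with Efemp1, and the 9 arrays are of 3 lines. Among the elastic fibre genes Fbln5 was nearest to it (r = 0.989).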

How the data were processed

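The deposited table gives log2 values (the base taken from their range) for 45101 probe sets on each of 9 expression arrays. GCOS and Partek are named per the submitters' processing notes, without versions; background correction, normalization and summarization are not given in the sources used here. Values were used as deposited, without the 64 control probe sets. Symbols came from the platform annotation (34945 probe sets with 1 symbol, 932 with several, 9160 with none). For gene-level tests the lowest 40% of probe sets by mean over all arrays (below 6.22) were left out and the brightest probe set kept, giving 12962 genes; single probe sets were tested among all 45037. Lines were compared with limma 3.58.1 (lmFit, eBayes, all 9 arrays) in R 4.3.3, with Benjamini-Hochberg adjustment. "Rose" and "fell" need an adjusted p below 0.05 and 2-fold; other differences are given as values. Where an adjusted p is given without a further word it is from the gene-level fit. The steps were run on simulated arrays drawn with the spread between arrays of a line. That simulation held no spread between lines or embryos and does not bear on it. Arrays have no read depth; precision is limited by having 3 arrays of 1 line a genotype. Named were all members and the 3 genes most like Efemp1. Of each pathway list up to 4 called genes were named, or the 2 with the largest KO minus WT differences where none was called. The 2 brightest fibroblast and smooth muscle markers were also named. Pdgfra, Myocd, Mfap2, Ltbp1, Ltbp3, Ltbp4 and the dim markers were added after their values were seen. Members and lists were chosen with earlier results of these data known. Python 3.11.15 with matplotlib 3.10.9 drew the plots. Alternatives were other scalings, filters, probe set rules, fits, fold minimums and each array left out; results under them for pathway genes were chosen after seeing the data.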

Additional observations from a re-analysis of the deposited data

How the results depend on the processing

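Quantile normalization, median centring, no low-value filter, the mean of a gene's probe sets, fits on the 2 lines alone, trended robust variances and each left-out array kept the counts of called elastic fibre genes at 1 (KO against WT), 0 (Het against WT) and 1 (KO against Het). With a 1.5-fold minimum these became 3, 0 and 3, and without a fold minimum 7, 4 and 8; over all genes the counts of 462, 33 and 259 became 1241, 236 and 895, and 6881, 4458 and 6782. The replicate number as a replicate block left the members' counts at 1, 0 and 1 and all genes at 462, 33 and 259; same-numbered arrays did not deviate together (r from -0.18 to 0.21 over 9 pairs), so the numbers were not taken as pairs. Of 384 member differences under alternatives, 342 kept direction and side of the adjusted p threshold, 28 were lost, 8 gained and 6 turned sign. Those that turned were Eln in KO against WT (-0.022 with quantile normalization, -0.0031 with the mean of probe sets) and Fbln5 in Het against WT (-0.0022 with quantile normalization, -0.033 with median centring, -0.0060 to 0.0145 with an array left out, below 0 without WT replicate 3, at -0.0028, and without Het replicate 1), all near 0; the cause was not tested. Of the 8 members' KO against WT differences only that of Eln changed direction and none changed side of the threshold. With 1 line per genotype no alternative bears on the spread between embryos.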

Other observations

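Over the 9 arrays the genes higher in KO (Efemp1, Fbln5, Fbln2 and Mfap5) correlated with each other at r = 0.715 to 0.989, and those lower in KO (Fbln1, Mfap4 and Fbn2) at 0.734 to 0.967. Pairs across these sets ran from -0.975 to -0.52, and Eln with the others from -0.32 to 0.47. The sets were formed after the values were seen and the arrays share 3 lines, so these numbers describe the line means and carry no test.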
